A study of Rattus norvegicus with 24 samples.

Results

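The genes described here belong to the DNA replication machinery and were measured in rat blood. They are Mcm2, Mcm3, Mcm4, Mcm5, Mcm6, Mcm7, Pcna, Rrm2, Tyms and Brca2. Their probes were found by gene name, as every probe of the array that was not a control and carried 1 of these 10 names. This gave 14 probes of the 30367 on the array, which carry 25885 gene names in all. Of these, 4 genes had several probes and 6 genes had 1.

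The proteins act at successive steps of S phase. Mcm2 to Mcm7 form the ring-shaped helicase that is loaded on replication origins and unwinds the DNA ahead of the polymerases. Pcna is the sliding clamp that holds the polymerases on the template. Rrm2 is the small, cell cycle-controlled subunit of ribonucleotide reductase, which makes deoxyribonucleotides, and Tyms makes the thymidylate that DNA needs. Brca2 acts in the repair of broken DNA by homologous recombination and protects stalled forks. Mature blood leukocytes rarely divide, so in blood such transcripts come largely from the few cycling lymphocytes and progenitors and from immature cells released by the marrow. In whole blood, fewer cells of a type and less RNA per cell cannot be told apart.

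The samples were 24 arrays of blood RNA, 4 in each of 6 groups, from Sprague Dawley rats that were male and 8 weeks old when the experiment began and were fed for 6 weeks. Rats of the LPS groups received 10 mg/kg of Escherichia coli lipopolysaccharide in the tail vein on 2 occasions, which the study used as a model of enteritis, and rats of the C groups received saline. G0 in a group name stands for the semi-synthetic diet alone. G1 stands for that diet with added oat beta-glucan of high molecular weight, and G2 for the one of low molecular weight. LPS-G0 replicates 3 and 4 bear the LPS group in their titles, but another of their labels calls them controls, and they were kept as LPS-G0.

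Each value is a log2 ratio, the rat RNA labelled with Cy3 over a common reference pool labelled with Cy5. The labels give the dyes in this way and the methods of the study give them in reverse, so every direction below follows the labels. The study reported Ube2c as lower in LPS-G1 than in LPS-G0, and the labels give that direction too. Over 7074 probes well above background in both channels of all arrays, 96.7% had a larger spread between arrays in Cy3 than in Cy5. Arrays had 7786 to 15385 probes well above background in Cy3, with slide medians of 11202, 10561.5 and 13532, and every one of the 3 slides held all 6 groups. Of 20 probes for genes of erythroid precursors and reticulocytes, 16 to 19 were well above background on every array, and probes for T cells, B cells, neutrophils and platelets were detected too, as blood should give.

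The probe sequences of the 3 genes that the results turn on are shown first, because the 2 probes of Rrm2 gave different results. The probe A_64_P113802 lies at chr6:42357941-42358000 of the rn4 assembly on the plus strand, and its last letters, in capitals, spell a stop codon. The probe A_64_P104009 lies 1209 bases further along the same strand, at chr6:42359210-42359269, and only its first 30 bases are printed. The Tyms probe A_44_P113933 lies at chr9:112605733-112605792 and the Brca2 probe A_64_P048136 at chr12:4282968-4283027, both on the minus strand, and of the latter the first 30 bases are printed. In the sequences that do not end in a stop codon no letters are marked.
Rrm2 A_64_P113802: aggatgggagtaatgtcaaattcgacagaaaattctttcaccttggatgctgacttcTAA
Rrm2 A_64_P104009: gcaagtcagatgtatgaccctggttggttt
Tyms A_44_P113933: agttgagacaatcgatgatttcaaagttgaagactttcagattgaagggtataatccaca
Brca2 A_64_P048136: ctctacctggtaactctttaggattagact

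Detection in the blood set how much could be said of each gene. A probe was tested if some group had it well above background on each of its 4 arrays, judged in Cy3. That held for 9 of the 14 probes and 7 of the 10 genes, namely both probes of Mcm3, 1 of 2 probes of Mcm4, both probes of Rrm2, and the probes of Mcm7, Pcna, Tyms and Brca2. The probes of Mcm3 (A_64_P052745), Mcm7, Pcna and Rrm2 (A_64_P104009) were well above background on all 24 arrays. Both Mcm2 probes, the other Mcm4 probe and the probes of Mcm5 and Mcm6 were not tested. Mcm2 A_64_P027048 was well above background on 9 of 24 arrays, Mcm5 on 3, Mcm6 on 2, Mcm4 A_64_P033939 on 1, and Mcm2 A_44_P223446 on 0. The helicase was thus measured through 3 of its 6 subunits. The study chose Mcm2 among its array genes of LPS-G2 vs. LPS-G0 for real-time PCR in other rats, and reported the same direction. In both of these groups A_44_P223446 was well above background on 0 of 4 arrays and A_64_P027048 on 1 of 4. No change of Mcm2 is therefore read from the arrays here.

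**Figure D1:**
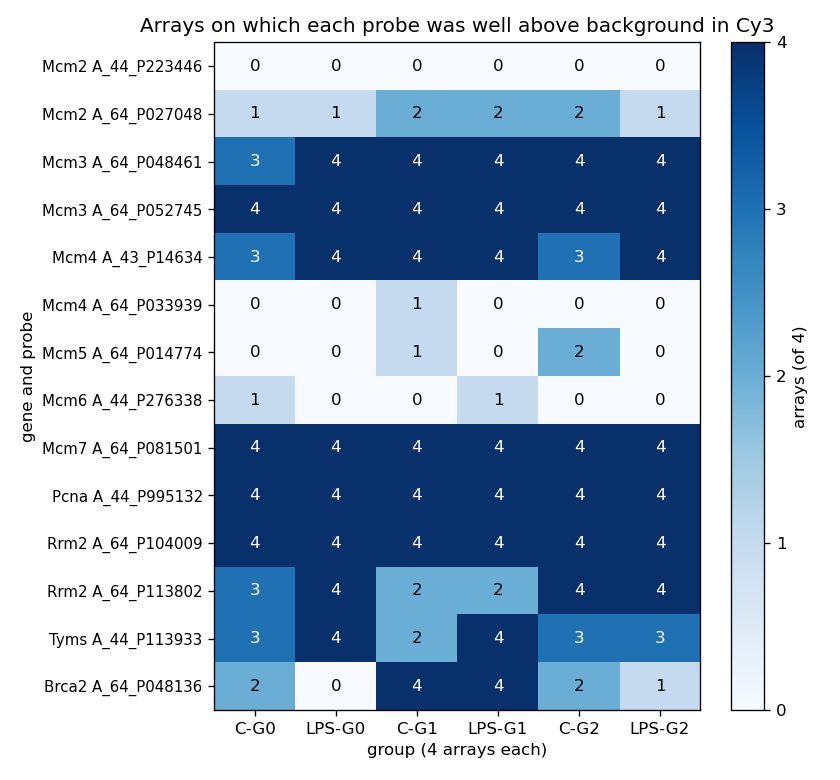
Number of arrays, of 4 in each group, on which each of the 14 probes was well above background in the Cy3 channel (rows are genes with their probes, columns are groups, darker is more arrays). Brca2 was detected on 4 of 4 arrays in C-G1 and LPS-G1 and on 0 of 4 in LPS-G0.

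The question of the comparison between LPS-G1 and LPS-G0 was whether high-molecular-weight beta-glucan changes gene expression in rats given LPS. Of the members that supply deoxyribonucleotides, Tyms and 1 of the 2 Rrm2 probes were lower in LPS-G1 blood than in LPS-G0. The Rrm2 probe detected on more arrays did not pass the test. The repair gene Brca2 was detected on all LPS-G1 arrays and on no LPS-G0 array. No probe of the helicase or the clamp passed the test. With limma, 3 of 9 probes had an adjusted p under 0.05, against 8.93% of all 10313 probes tested (8.39% lower and 0.543% higher). One of these was Brca2, which entered the 16-array test through LPS-G1 alone, where it was high, so its part in the count supports nothing. The median log2 change was 0.18 over the 9 probes and 0.06 over all probes. At an unadjusted p under 0.05 there were 3 of 9, against 26.9% of all. The values of LPS-G1 and LPS-G0 did not overlap for 3 of the 9 probes, against 21.9% of all. Brca2 was among the 3 in both of these counts, where its part again supports nothing.

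For Rrm2, A_64_P113802 gave log2 ratios of 1.17, 0.62, 0.58 and 0.91 on the LPS-G0 arrays and -0.30, -1.27, -0.46 and -0.82 on the LPS-G1 arrays. All 4 LPS-G1 arrays were below all 4 LPS-G0 arrays. The log2 change was -1.53 ± 0.22 (SE, n = 4 in each group), a 2.89-fold lower level with an adjusted p of 0.0254 in limma. Of the 4 LPS-G1 arrays, 2 had this probe well above background. The difference was found within every slide, at -1.19, -1.45 and -1.73. It kept an adjusted p under 0.05 without LPS-G0 replicate 2 or 3 or LPS-G1 replicate 1 or 3 (0.0102 to 0.0353 in limma), but not without LPS-G0 replicate 1 or 4 or LPS-G1 replicate 2 or 4 (0.0526 to 0.104), where the log2 change was -1.35 to -1.50.

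Tyms gave log2 ratios of 0.30, 1.33, 0.42 and 0.58 in LPS-G0 and -0.68, -1.27, -0.21 and -0.62 in LPS-G1. Again no LPS-G1 array reached the lowest LPS-G0 array, and the probe was well above background on all 8. The log2 change was -1.35 ± 0.34 (SE, n = 4 in each group), a 2.56-fold lower level with an adjusted p of 0.0289 in limma. Within the 3 slides it was -1.49, -1.16 and -1.20. Leaving out LPS-G0 replicate 3 or LPS-G1 replicate 1 left the adjusted p at 0.0359 and 0.0286, and leaving out any of the other 6 arrays of the groups raised it to between 0.0598 and 0.104 in limma.

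Brca2 gave log2 ratios of -0.56, -1.83, 0.08 and -2.04 in LPS-G0, where it was not well above background on any array. In LPS-G1 it gave 0.44, 1.00, 0.47 and 0.54 and was well above background on 4 of 4. The groups did not overlap, and in the processing used here the Cy3 level was 3.05-fold higher in LPS-G1. It was taken against the lowest signal of detected probes where this exceeded the signal of Brca2. This is no minimum, since over 20 alternatives, some leaving out arrays, the log2 change of the ratio ran from 0.50 to 2.09. The limma fit gave an adjusted p of 0.0485. Since the filter let the probe in only through LPS-G1, that p is no independent support. It was over 0.05 on leaving out any array except LPS-G0 replicate 3 (up to 0.163 in limma). Without LPS-G0 replicates 3 and 4, whose labels conflict, the log2 changes were -1.60 for Rrm2 A_64_P113802 and -1.51 for Tyms, and the adjusted p was 0.127 for these and for Brca2 in limma. With the slide as a block the adjusted p were 0.0499, 0.0529 and 0.0934.

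The other Rrm2 probe did not pass the test. A_64_P104009 gave 0.05, 0.21, -0.21 and -1.63 in LPS-G0 and -0.84, -1.14, -0.36 and -0.46 in LPS-G1. The low value of LPS-G0 replicate 4 stood against 0.91 from A_64_P113802 on the same array, and neither probe had a spot marked as an outlier. The log2 change was -0.30 ± 0.33 (SE, n = 4 in each group, adjusted p of 0.556 in limma), and without LPS-G0 replicate 4 it was -0.72 ± 0.24 with an adjusted p of 0.111. The difference between the 2 probes on an array had a mean of 1.22 in LPS-G0 (SD 0.93, n = 4) and of -0.01 in LPS-G1 (SD 0.38, n = 4), with a two-sided exact permutation p of 0.0571. Without that array the exact permutation p was 0.0857.

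**Figure D2:**
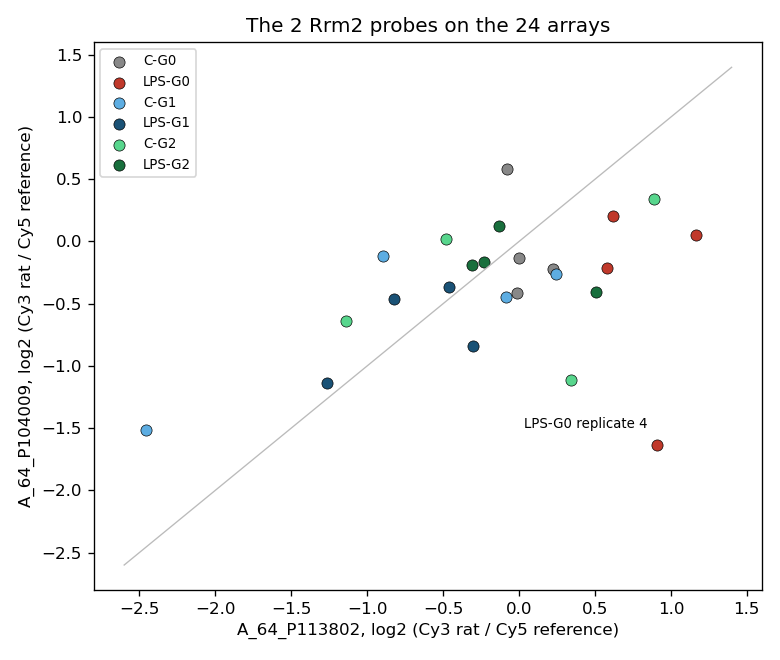
Log2 ratio (Cy3 rat over Cy5 reference) of Rrm2 by A_64_P113802 (horizontal) and by A_64_P104009 (vertical) on the 24 arrays, coloured by group, with the line of equal values. LPS-G0 replicate 4 lies at 0.91 and -1.63, far below the line.

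The tested probes for helicase subunits and the clamp had mean log2 ratios between -0.47 and 0.15 in LPS-G0 and LPS-G1. The lowest mean was that of Mcm3 A_64_P052745 in LPS-G0. In LPS-G1 vs. LPS-G0 the log2 changes were 0.19 and 0.49 for the 2 probes of Mcm3, 0.16 for Mcm4, 0.21 for Mcm7 and 0.18 for Pcna. Mcm3, Mcm4 and Mcm7 are subunits of one ring, and their values gave no change past the test in any comparison. The 95% confidence interval was -0.20 to 0.61 for Mcm7, -0.32 to 0.68 for Pcna and -0.08 to 1.06 for Mcm3 A_64_P052745. A change of 2-fold in either direction lay outside the intervals of Mcm7 and Pcna, and an upward change of 2-fold lay just inside that of this Mcm3 probe.

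**Figure D3:**
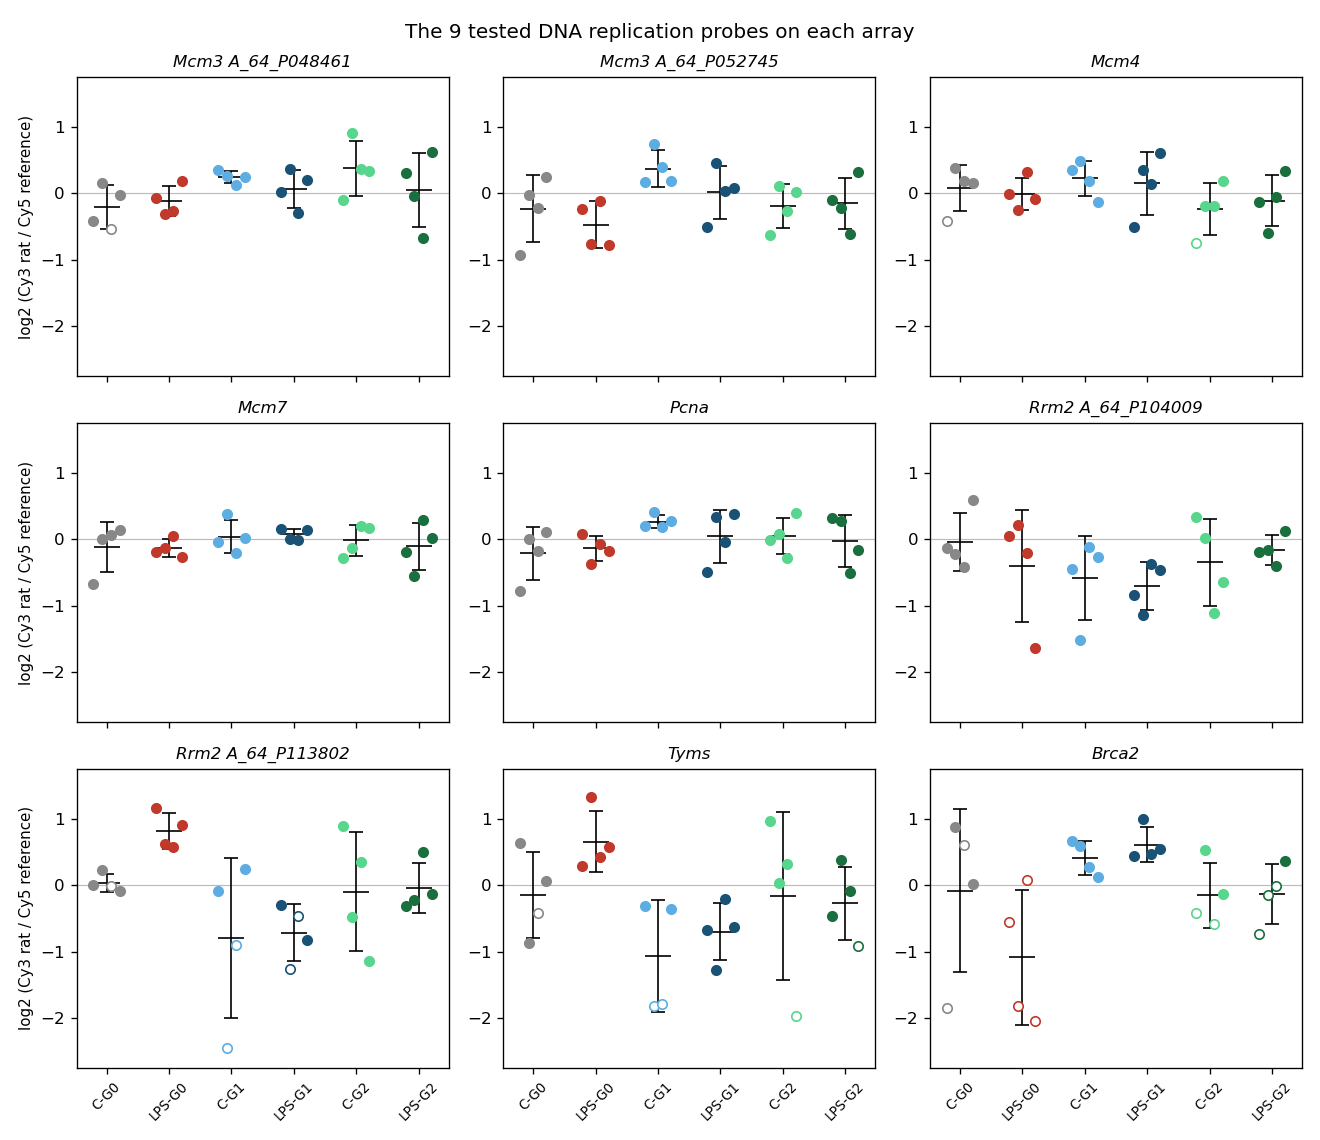
Log2 ratio (Cy3 rat over Cy5 reference) of the 9 tested probes on each of the 24 arrays, by group, with the mean and SD (n = 4). Filled points were well above background in Cy3 and open points were not. Rrm2 A_64_P113802 and Tyms are highest in LPS-G0, while the Mcm3, Mcm4, Mcm7 and Pcna probes stay between -0.93 and 0.91.

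LPS itself was addressed by LPS-G0 vs. C-G0. The values of the C-G0 arrays for Rrm2 A_64_P113802 lay between -0.08 and 0.22, below all 4 LPS-G0 arrays (1 of 9 probes without overlap, against 5.03% of all), and the log2 change was 0.79 ± 0.22 (SE, n = 4 in each group). The Tyms values in C-G0 were 0.64, -0.87, -0.42 and 0.06, which overlapped LPS-G0, and the log2 change was 0.80 ± 0.34 (SE, n = 4 in each group). The adjusted p was 0.218 for Rrm2 and 0.277 for Tyms in limma. The second Rrm2 probe, A_64_P104009, gave -0.35 ± 0.33 with an adjusted p of 0.65, and without LPS-G0 replicate 4 it gave 0.06 ± 0.24. None of the 9 probes was called, against 0.0097% of all 10313 probes (1 probe), while 2 of 9 had an unadjusted p under 0.05, against 15.2% of all. With array weights, or without C-G0 replicate 1, Rrm2 A_64_P113802 was called higher (adjusted p of 0.0298 and 0.0495 in limma) and Brca2 lower, with detection on 2 of 4 C-G0 and 0 of 4 LPS-G0 arrays. C-G0 replicate 1 was the lowest array of its group for Mcm3 A_64_P052745 (-0.93), Mcm4 (-0.42), Mcm7 (-0.67), Pcna (-0.78) and Brca2 (-1.85).

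Mcm6 was not tested. Its log2 ratios were -0.45, 0.29, 0.26 and 0.16 in C-G0 and -0.50, -0.63, -1.60 and -0.61 in LPS-G0. It was well above background on 1 of 4 and 0 of 4 of these arrays, so neither a difference nor a direction can be read from them.

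Low-molecular-weight beta-glucan was addressed by LPS-G2 vs. LPS-G0. Rrm2 A_64_P113802 gave -0.31, -0.23, 0.51 and -0.13 in LPS-G2, all below the LPS-G0 arrays (1 of 9 probes without overlap, against 10.5% of all), with a log2 change of -0.86 ± 0.22 (SE, n = 4 in each group). For Tyms the LPS-G2 arrays gave -0.47, 0.38, -0.09 and -0.92, with a log2 change of -0.93 ± 0.34. The adjusted p was 0.597 for both in limma, and 0 of 9 probes and 0% of all probes were called, although 2 of 9 and 8.23% of all had an unadjusted p under 0.05. The second Rrm2 probe gave 0.24 ± 0.33, and its sign turned to -0.17 ± 0.24 without LPS-G0 replicate 4. Both comparisons use the same LPS-G0 arrays. The diets were compared directly in LPS-G2 vs. LPS-G1, where 0 of 9 probes and 0% of all were called by limma, with 1 of 9 and 6.68% of all at an unadjusted p under 0.05. There Rrm2 A_64_P113802 was 0.67 higher in LPS-G2 on the log2 scale (95% confidence interval 0.21 to 1.13, adjusted p of 0.679 in limma), and Tyms 0.42 higher (-0.29 to 1.13).

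**Figure D4:**
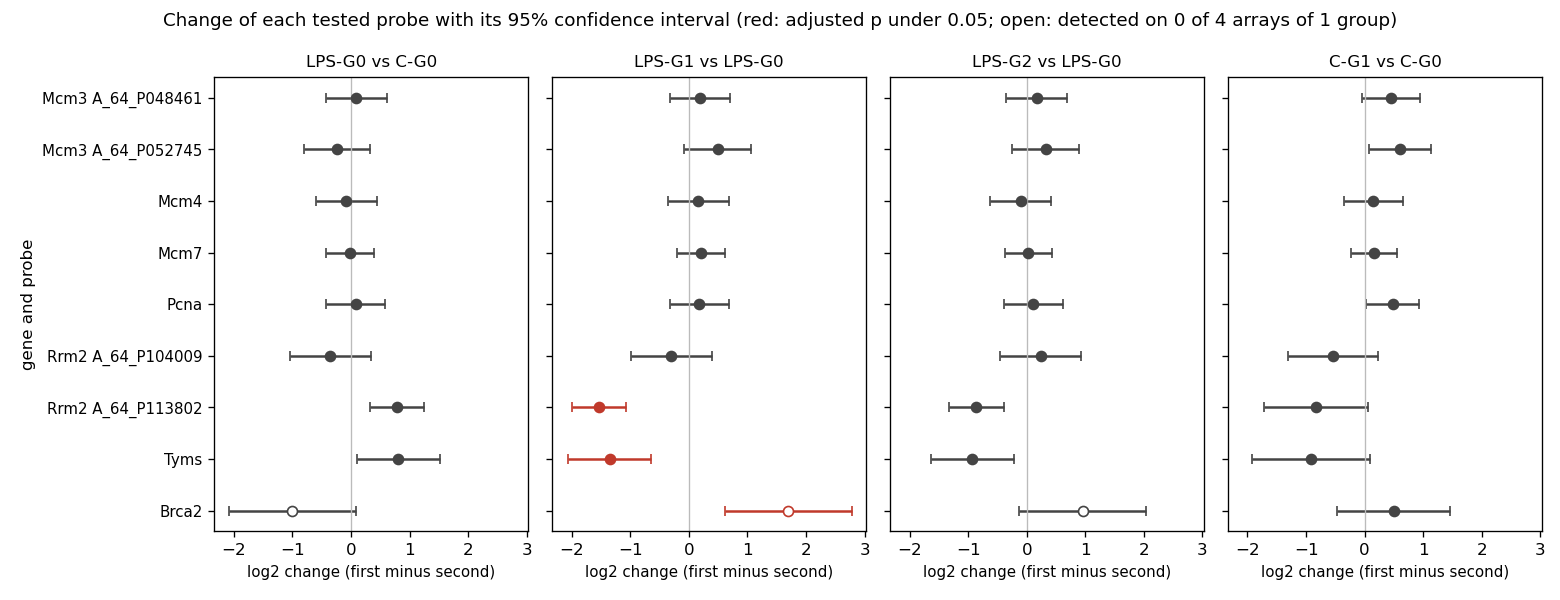
Log2 change of the 9 tested probes with its 95% confidence interval in 4 comparisons (first group minus second, limma), with red points for an adjusted p under 0.05. The 3 red points lie in LPS-G1 vs. LPS-G0, at -1.53 for Rrm2 A_64_P113802, -1.35 for Tyms and, as an open point, for Brca2. Open points mark a probe detected on 0 of 4 arrays of 1 of the groups, whose position is no measured size.

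In rats without LPS, C-G1 vs. C-G0 gave 0 of 9 probes called, against 0.028% of all 10708. Its arrays for Rrm2 A_64_P113802 were at -0.09, -2.46, -0.90 and 0.24 in C-G1, and those for Tyms at -0.31, -1.82, -1.78 and -0.36. C-G1 replicates 2 and 3 were low for both genes and were not well above background there. The log2 changes were -0.83 ± 0.43 for Rrm2 A_64_P113802 and -0.92 ± 0.49 for Tyms (SE, n = 4 in each group, adjusted p of 0.202 and 0.211 in limma). Mcm3 A_64_P052745 (0.61) and Pcna (0.48) were higher at an unadjusted p under 0.05, 2 of 9 probes against 27.9% of all, with adjusted p of 0.149 and 0.166 in limma. C-G2 vs. C-G0 gave 0 of 9 probes called, against 0.028% of all, and 1 of 9 at an unadjusted p under 0.05, against 13.3%. Its largest log2 change was 0.58 for Mcm3 A_64_P048461 (adjusted p of 0.31 in limma).

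LPS was also compared with saline within each beta-glucan diet. In LPS-G1 vs. C-G1 the log2 change was 0.09 ± 0.43 for Rrm2 A_64_P113802, 0.37 ± 0.49 for Tyms and 0.20 ± 0.46 for Brca2. In LPS-G2 vs. C-G2 these were 0.06 ± 0.43, -0.11 ± 0.49 and 0.02 ± 0.46. None of the 9 probes was called by limma in either, against 0.00934% and 0% of all, and none had an unadjusted p under 0.05, against 2.81% and 1.09% of all. The difference between the LPS effect on the G1 diet and that on the G0 diet was -0.70 ± 0.61 for Rrm2 A_64_P113802 and -0.43 ± 0.69 for Tyms, with an adjusted p of 0.999 for each in limma. For the G2 diet it was -0.73 ± 0.61 and -0.92 ± 0.69, with adjusted p of 0.845 and 0.836. Brca2 is not given here, since it was not detected in LPS-G0. None of the 9 probes and 0% of all were called for either diet, with 0 of 9 at an unadjusted p under 0.05, against 3.01% and 5.57% of all. The effect of LPS was not shown to differ between diets for these genes.

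How the members varied together was described over the 24 arrays after each group was centred on its own mean. The arrays share a reference RNA and differ in the number of probes detected, so these are descriptions. Rrm2 A_64_P113802 and Tyms went together, with Pearson's r of 0.64. Both ran against Mcm3 A_64_P052745, at -0.55 and -0.59, and against Mcm4, at -0.46 and -0.65. Mcm3 A_64_P052745 went with Mcm4 (0.73), Pcna (0.72) and Brca2 (0.68). The 2 probes of Mcm3 reached 0.57 and the 2 probes of Rrm2 0.34. Rrm2 A_64_P104009 had an r between -0.25 and 0.13 with the Mcm, Pcna and Brca2 probes.

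**Figure D5:**
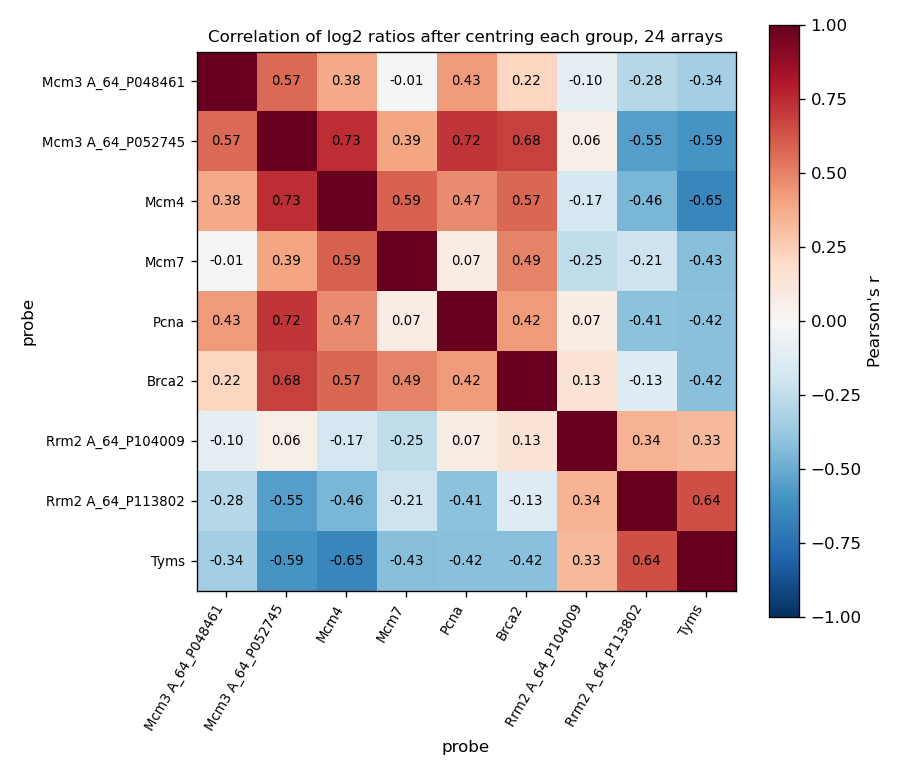
Pearson's r between the log2 ratios of the 9 tested probes over 24 arrays, after each group was centred on its mean (red positive, blue negative). Rrm2 A_64_P113802 and Tyms have r of 0.64 with each other and negative r with every Mcm, Pcna and Brca2 probe.

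The probes most like the members were sought by the correlation over 24 arrays with the mean of the 7 lead probes, 1 for each tested gene, among 9263 other probes. They were those of Tmem57 (Pearson's r of 0.81), Vdac2 (0.79), Gtpbp10 (0.78), Spryd3 (0.78), Fry, Dpm2, Mbd1 and Llph (0.77 each). The lead probe of Rrm2 was A_64_P104009, detected on more arrays than the other. The mean joins probes that ran in opposite directions, as Tyms and Mcm3 A_64_P052745 did (Pearson's r of -0.74 without centring of groups). A gene listed here need therefore not resemble every member.

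Other genes of replication were detected to different extents. Of 29 probes for origin licensing and firing, 3 were tested, and 1 of these was called in LPS-G1 vs. LPS-G0, that of Recql4, a helicase of replication initiation, at -0.64 ± 0.17 (SE, n = 4 in each group, adjusted p of 0.0307 in limma). Of 18 tested probes for nucleotide supply (26 on the array), 1 was called, that of Tk1, the thymidine kinase of S phase, at -0.95 ± 0.29 (adjusted p of 0.0477). Of 14 for S phase regulators and chromatin assembly, 1 was called, that of Ccnd1, a G1 cyclin, at -0.64 ± 0.16 (adjusted p of 0.0289). None of 17 tested probes for polymerases, clamp loader and ligase (35 on the array) and none of 4 for homologous recombination (31 on the array) was called by limma, with 3 and 0 at an unadjusted p under 0.05. Of all probes in this comparison 8.93% were called (8.39% lower), and 26.9% had an unadjusted p under 0.05. The counts of 1 of 18 and 1 of 14 are not above that share of calls. The median log2 changes were -0.25 for origin licensing, 0.18 for nucleotide supply, -0.22 for S phase regulators, 0.19 for polymerases and 0.23 for recombination, against 0.06 for all probes.

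Genes of mitosis, which follows S phase, were compared as well. All 15 tested probes of mitosis had a negative log2 change in LPS-G1 vs. LPS-G0, with a median of -0.68, and 3 were called, against 8.93% of all probes. Ube2c, the ubiquitin-conjugating enzyme of the anaphase-promoting complex, changed by -2.50 ± 0.45, Tpx2, which activates Aurora A on the spindle, by -1.68 ± 0.47, and Cdca3, a trigger of mitotic entry, by -1.37 ± 0.35 (SE, n = 4 in each group, adjusted p of 0.0289, 0.0374 and 0.029 in limma). The study had reported lower Ube2c from these arrays. From them it had also chosen Tpx2 in this comparison for real-time PCR in other rats, and reported the same direction. The calls of Ube2c and Tpx2 here come from the same arrays and are no separate support. In C-G1 vs. C-G0 the median was -0.69 and 0 of 15 were called by limma, against 0.028% of all probes. There 7 had an unadjusted p under 0.05, against 27.9% of all. In LPS-G1 vs. LPS-G0 these were 11, against 26.9%. All 15 were negative in LPS-G2 vs. LPS-G0 too, from -1.83 to -0.16 with a median of -0.36. None was called there, and 3 were lower at an unadjusted p under 0.05, against 8.23% of all. Both comparisons use the same LPS-G0 arrays. For LPS-G0 vs. C-G0 the median was 0.26, with 0 called and 2 higher unadjusted, against 15.2% of all.

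Markers of erythroid precursors and reticulocytes, immature red cells that still carry RNA, were read on the same arrays. Of 19 tested probes, 5 were called lower in LPS-G1 vs. LPS-G0, against 8.39% of all probes, and 0 higher. The log2 changes ran from -1.21 to 0.58 with a median of -0.59. The called probes were those of Trim10 (-1.21), Gypc (-1.05), Hemgn (-1.03), Epb42 (-0.93) and Klf1 (-0.81), genes of the red cell membrane and of erythroid differentiation. The mean log2 ratio of the 19 probes per array ranged from 0.26 to 0.43 in LPS-G0. It ran from -0.77 to 0.13 in LPS-G1 and from 0.17 to 0.19 in LPS-G2. In C-G0 it ran from -0.02 to 0.58, in C-G1 from -1.59 to 0.01 and in C-G2 from -0.49 to 0.31. All arrays of LPS-G1 and of LPS-G2 thus lay below all those of LPS-G0. Of 20 probes on the array, 1 was never well above background. In C-G1 vs. C-G0 the median of the 19 was -1.03, with 0 called by limma and 13 lower at an unadjusted p under 0.05, against 27.9% of all probes in either direction. By the same measures LPS-G0 against C-G0 gave 0.04 (0 called, 2 higher unadjusted), and for LPS-G2 against LPS-G0 it was -0.14 (0 called, 1 lower unadjusted). Of all probes 15.2% and 8.23% had an unadjusted p under 0.05 in these comparisons. The part of these cells in the values of Rrm2 and Tyms was not tested. The other marker lists were for lymphocytes of the B, T, cytotoxic and plasma cell types, mature and immature granulocytes, monocytes, platelets and progenitors. Of their probes, 1 was called in LPS-G1 vs. LPS-G0, that of Klrk1 at -0.48. It was 1 of 13 tested probes for cytotoxic cells, and 8.93% of all probes were called.

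The promoters were read because E2F factors are known to switch on replication genes in late G1. RefSeq promoters of the GRCr8 assembly, 250 bases before to 50 after the start of the gene, were matched for 8 members, all except Mcm4 and Rrm2. The E2F core was searched on both strands as TTCCCGC or TTGGCGC or TTCGCGC or TTGCCGC, where matches can overlap. It was found in 6 of 8 members, namely Mcm2, Mcm3, Mcm5, Mcm6, Mcm7 and Tyms, against 9.52% of all 33469 promoters. The CCAAT box, as CCAAT on either strand, was in 5 of 8 against 37.5%, and the cell cycle homology letters TTTGAA or TTCGAA were in 2 of 8 against 19.7%. Stretches of 30 bases before the start with the E2F core in capitals are shown for 3 genes, the tested Mcm7 and Tyms, which differed in their values, and Mcm6 with its nearest pair of overlapping matches. They lie at chr12:22163210-22163239, chr9:120776102-120776131 and chr13:42404408-42404437, all on the minus strand.
Mcm7: gtgacgacgtTTCGCGCCAAtttcggttgg
Tyms: aaggtgcgggttTTGGCGCcgactacactg
Mcm6: ttggacagacTTGGCGCGAAgtagctcagc
The Tyms promoter has 1 match, whose first base is at position -36 from the start, and the Mcm7 stretch has 2 overlapping ones that begin at -51 and -48. A match in these letters is a description of the sequence and not a bound site.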

How the data were processed

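Blood RNA of 24 rats was hybridised by the authors with a common reference on Agilent SurePrint G3 Rat microarrays of 2 colors. The deposited processed intensity of each channel was made with Agilent Feature Extraction (10.10.1.1 in the file headers, 10.7.3.1 in the labels), with background subtraction and a Lowess correction between dyes on every array. The deposited log10 ratio is that of processed Cy5 over processed Cy3. It was converted to log2 and its sign turned. All 1511424 ratios of the authors' table are identical to those of the arrays. Outlier spots (679 to 1133 per array) were left out and spots of a probe averaged. A probe counted as well above background when at least 0.5 of its spots were. Of 30367 probes, 10313 (16 arrays) and 10708 (24 arrays) were tested. Models were fitted in R 4.3.3 with limma 3.58.1, over 16 arrays (the C-G0 group and every LPS group) for comparisons among them and over 24 for the others and for the differences between LPS effects. Adjustment followed Benjamini and Hochberg over all tested probes, and the method was tested on simulated data. The precision is limited by 4 arrays per group. The labels call the arrays of a group biological replicates. The exact permutation test is two-sided over 70 arrangements, with a smallest p of 0.0286. The named genes were all members and, from the other lists, called probes with the largest changes. Members and lists were chosen with earlier results of these data known. Positions of probes come from the headers' array design (rn4), and promoters from RefSeq (GRCr8).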

Additional observations from a re-analysis of the deposited data

Results flagged for a closer look

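Of 54 groups of 4 arrays checked, 1 held an array that stood apart, and chance gives about 1 in 20. For Mcm7, C-G0 replicate 1 was at -0.67 on the log2 scale, and the nearest array of the group was at 0.01, a gap of 0.83 of the range of the group.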

How the results depend on the processing

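No alternative reversed the direction of a called probe. The 3 member probes called in LPS-G1 vs. LPS-G0 became 1 with the slide as a block, and 0 with no filter on dim probes, with all 24 arrays in the model, with the Cy3 signal alone, without the LPS-G0 replicates of conflicting labels (3 and 4), and by the analysis of variance with Tukey's HSD of the methods. Before adjustment Tukey's HSD gave 2 member probes and 1330 of all probes, and after adjustment 0 of all. Leaving out 1 array in limma gave 0 to 3 member probes called. All probes called fell from 921 to 336 with the slide as a block, to 3 with 24 arrays and to 0 without LPS-G0 replicate 1 or 4 or LPS-G1 replicate 4 while they rose to 2844 with array weights (3 member probes) and to 1264 without LPS-G1 replicate 1 (2 member probes). The cause was not tested. In LPS-G0 vs. C-G0, 0 member probes became 2 with array weights, and 0 to 2 on leaving out 1 array, with 2 without C-G0 replicate 1. The other 8 comparisons gave 0 in every alternative run. Background correction by normexp with loess gave smaller log2 changes in LPS-G1 vs. LPS-G0, at -0.77 for Rrm2 A_64_P113802 and -0.60 for Tyms. In no comparison did every same-numbered pair of arrays reach the correlation of 0.1 set for a pairing (-0.26 to 0.54 over all, and above 0 for every pair in LPS-G2 vs. LPS-G1, LPS-G1 vs. C-G1 and LPS-G2 vs. C-G2), and with the replicate number as a block the count in LPS-G1 vs. LPS-G0 was 3. Within 1 slide a group had 1 or 2 arrays, so those values carry no test.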
